A study of Mus musculus with 10 samples.

Results

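The serpin, cystatin, Spink and Wfdc genes were followed as a set of 86 among the 22180 genes that 1 symbol names on the array. A gene entered the set if its symbol began with Serpin, or was Cst, Spink or Wfdc followed by digits alone. Serping1 and Cst10 were left out, and 4 Wfdc genes with a letter after the digits were not counted. The brightest probe set stood for each gene, and 3 genes had a second one. The set held 53 serpins, 7 cystatins, 12 Spink genes and 14 Wfdc genes.

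RNA came from dissociated salivary gland cells of 10 female NOD/shiLtJ mice, an inbred strain that develops autoimmune diabetes and lymphocyte infiltrates of the salivary glands. Type 1 diabetes was present at 21 weeks of age in 4 mice, 3 mice of 21 weeks had no diabetes, and 3 mice of 6 weeks had none. The groups share strain and sex, and the labels give no other allele or agent. The sources used here do not give the gland taken, the duration of diabetes or any insulin treatment. The labels number the mice within each group, so each array was read as 1 mouse, and p-values measure the spread between these samples. In such bulk samples, fewer cells of a type and less RNA per cell cannot be told apart. Defining salivary genes were bright on every array: Prol1 and Car6 lay between 11.96 and 12.68 on the log2 scale. Nondiabetic 21-week array 3 stood apart from the rest, with correlations of 0.901 to 0.930 to the other arrays against 0.940 to 0.975 among those. Diabetic array 4 stood apart in B and plasma cell markers, whose mean was 7.72 there and 4.37 to 6.00 elsewhere.

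Extracellular proteases in saliva and in inflamed tissue are held in check by a few inhibitor families. Serpins trap serine proteases by offering a reactive loop that is cut and then locks the enzyme in a dead complex. Cystatins block the papain-like cathepsins, Spink proteins carry Kazal domains that block trypsin-like enzymes, and Wfdc proteins carry the whey acidic protein domain found in antiproteases of mucosal fluids. The label of secreted inhibitors does not hold for each member. Clade B serpins such as Serpinb1a, Serpinb6a and Serpinb9 act mainly inside cells. Serpinh1 is a collagen chaperone of the endoplasmic reticulum, Serpina6 and Serpina7 carry hormones, and Serpina4-ps1 is a pseudogene.

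Most of the set was dim in the gland. A gene was tested where its value exceeded the 25th percentile of the array (2.58 to 2.70 on the log2 scale) on at least 3 arrays. Of the 86 members, 49 met this and 37 did not, and 20 of the 37 were below that percentile on all 10 arrays. The values of these 37 ran from 0.81 to 3.39. They included Serpina1a, Serpina1c and Serpina1d, which are α1-antitrypsin copies, the antithrombin gene Serpinc1, the neuroserpin gene Serpini1, the pancreatic trypsin inhibitor Spink1, and Cst6. By family the tested members were 12 of 20 clade A serpins, 10 of 25 clade B serpins, 5 of 8 other serpins, 3 of 7 cystatins, 6 of 12 Spink genes and 13 of 14 Wfdc genes. Only 14 members lay above the array's median (3.53 to 3.69) on each array: Cst3, Serpina3n, Serpinb6a, Serpinb6b, Serpinb9, Serpinf1, Serpinh1 and 7 Wfdc genes. Signals of different probe sets do not rank the genes by abundance.

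The comparison of diabetic (n = 4) with nondiabetic glands of the same age (n = 3) asks what accompanies diabetes at 21 weeks. Serpinb11, Wfdc18 and Serpina3n rose, by 5.83-fold, 2.97-fold and 2.06-fold, and no member passed the test as lower. These were 3 of the 49 tested members by limma with Benjamini-Hochberg adjustment over all 18826 genes, or 6.12%, where 1.44% of all genes passed, 1.10% rising and 0.340% falling. At an unadjusted p under 0.05 there were 13 members, against 15.8% of all genes. The other 46 members did not pass. The median log2 change of the 49 was −0.09, against 0.03 over all genes. Changes below 0 were seen for 32 of the 49, and for 8281 of all 18826 genes. Arrays of the groups did not overlap for 12 members (24.5%), against 14.1% of all genes. In diabetic glands 7 of them were higher (9.11% of all genes) and 5 lower (4.98%). The 7 were the 3 genes that rose with Cst3, Serpina1b, Serpina4-ps1 and Serpinf1, and the 5 were Serpina3b, Serpinb1a, Serpinb1c, Spink14 and Spink8. Serpina4-ps1 exceeded the 25th percentile on every diabetic but no nondiabetic 21-week array, and Spink14 on no diabetic array. Both met the filter mainly through the group where they were higher, which limits their weight in the 24.5%.

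**Figure D1:**
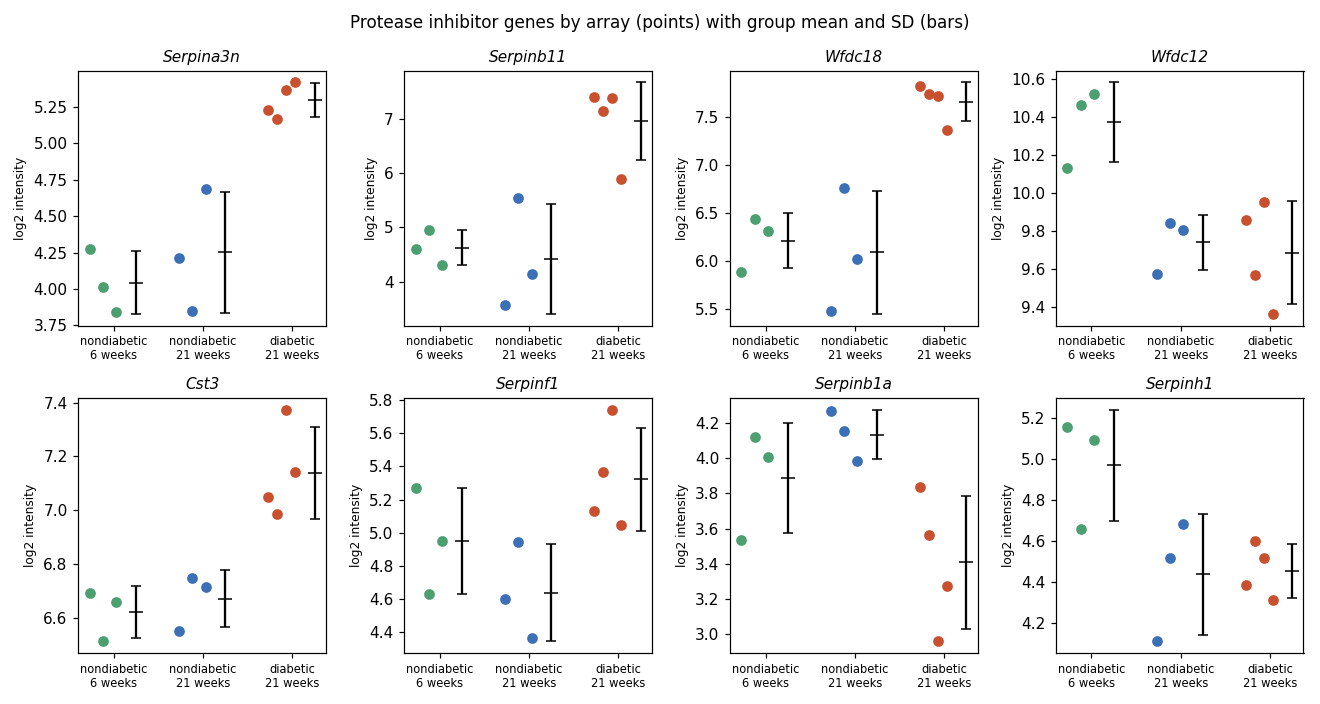
Log2 intensity of 8 members in each array, with points for mice, horizontal marks for group means and bars for the SD (n = 3 nondiabetic at 6 weeks, 3 nondiabetic at 21 weeks and 4 diabetic at 21 weeks). All diabetic points of Serpina3n, Serpinb11 and Wfdc18 lie above every nondiabetic point, and Wfdc12 is highest at 6 weeks.

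Serpina3n encodes a secreted inhibitor of the antichymotrypsin group and is an acute phase gene known to respond to inflammatory cytokines and glucocorticoids. Its values were 5.23, 5.17, 5.37 and 5.42 in the diabetic arrays. Nondiabetic glands gave 4.22, 3.85 and 4.69 at 21 weeks and 4.27, 4.01 and 3.84 at 6 weeks. The diabetic values spanned a narrow range (SD 0.12) above all others, and the highest nondiabetic value came from the array that stood apart. The log2 change was 1.04 ± 0.18 (SE; 95% interval 0.65 to 1.44; limma adjusted p = 0.0150). With quantile normalization the call was lost (0.94, limma adjusted p = 0.0623), as it was without diabetic array 3 (1.02, adjusted p = 0.0546) or nondiabetic 21-week array 1 (1.03, adjusted p = 0.0517). Without nondiabetic array 3 the change was 1.26 (adjusted p = 0.00423). The Serpina3 genes are near copies in the mouse, so hybridisation from paralogs cannot be separated. The tested paralogs Serpina3a and Serpina3b stood at −0.26 (adjusted p = 0.472) and −0.37 (adjusted p = 0.427), and Serpina3i and Serpina3j were too dim to test.

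Serpinb11 is a clade B serpin known from epithelia. It measured 7.40, 7.15, 7.39 and 5.90 in the diabetic arrays. The nondiabetic 21-week arrays gave 3.56, 5.55 and 4.14, and the 6-week arrays 4.61, 4.96 and 4.30. Diabetic array 4 was well below its group and still above every nondiabetic array, and nondiabetic array 2 was the highest of the 6 nondiabetic arrays. The log2 change was 2.54 ± 0.43 (95% interval 1.60 to 3.48; limma adjusted p = 0.0140). The call was lost without diabetic array 3 (2.40, adjusted p = 0.0523), nondiabetic 21-week array 1 (2.12, adjusted p = 0.0506) or nondiabetic 21-week array 3 (2.41, adjusted p = 0.0727). RefSeq places Serpinb11 between Serpinb3c and Serpinb7 in a cluster with other clade B genes. Those 2 neighbours were too dim to test, and of 11 serpins in the set on that chromosome only Serpinb11, Serpinb5 and Serpinb8 were tested. Serpinb5 (maspin) stood at −0.28 (adjusted p = 0.560) and Serpinb8 at −0.06 (adjusted p = 0.860).

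Wfdc18, also known as the extracellular proteinase inhibitor Expi, is a small secreted protein first studied in mammary gland. Diabetic arrays read 7.82, 7.74, 7.72 and 7.37, against 5.48, 6.77 and 6.03 without diabetes at 21 weeks and 5.89, 6.44 and 6.31 at 6 weeks. The lowest diabetic value again came from array 4, and the highest nondiabetic one from nondiabetic 21-week array 2. The log2 change was 1.57 ± 0.25 (95% interval 1.03 to 2.11; limma adjusted p = 0.00893), and it still passed whichever array was left out (1.27 to 1.91). Wfdc17 and Wfdc21 lie on either side of Wfdc18. Wfdc17, which is expressed by activated macrophages, measured 5.36, 4.89, 5.53 and 5.56 in diabetic glands, 5.18, 4.62 and 4.70 in nondiabetic ones of that age and 4.87, 4.99 and 4.90 at 6 weeks. The groups overlapped, and its change was 0.50 ± 0.18 (95% interval 0.11 to 0.90; adjusted p = 0.203). Wfdc21 stood at −0.09 ± 0.14 (adjusted p = 0.794).

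The promoters of the 3 genes that rose are shown because these are the members that rose. Each sequence holds the 250 bases before the RefSeq start in GRCm38.p6, 5′ to 3′ on the strand of the gene, and capitals mark matches to the motifs searched.
Serpina3n, chr12:104406458-104406707, + strand: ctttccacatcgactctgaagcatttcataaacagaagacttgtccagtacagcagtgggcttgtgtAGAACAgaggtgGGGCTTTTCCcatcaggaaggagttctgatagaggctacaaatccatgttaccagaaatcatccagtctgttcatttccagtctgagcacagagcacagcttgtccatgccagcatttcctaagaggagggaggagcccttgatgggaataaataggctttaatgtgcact
Serpinb11, chr1:107362064-107362313, + strand: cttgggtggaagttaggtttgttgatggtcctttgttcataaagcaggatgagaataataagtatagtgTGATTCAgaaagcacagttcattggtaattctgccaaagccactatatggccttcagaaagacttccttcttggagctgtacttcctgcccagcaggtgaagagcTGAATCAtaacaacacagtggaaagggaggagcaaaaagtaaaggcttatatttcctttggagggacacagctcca
Wfdc18, chr11:83708754-83709003, + strand: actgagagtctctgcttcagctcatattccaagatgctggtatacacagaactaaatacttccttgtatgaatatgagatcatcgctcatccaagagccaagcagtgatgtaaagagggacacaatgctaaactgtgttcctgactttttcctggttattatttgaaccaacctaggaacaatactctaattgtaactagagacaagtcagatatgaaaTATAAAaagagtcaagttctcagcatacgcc
Both strands were searched for the TATA box (TATAAA), AP-1 (TGANTCA), STAT (TTCNNNGAA), 1 arm of the glucocorticoid response element (AGAACA), the full element (AGAACA and TGTTCT with 3 free bases between), NF-kB (GGG and TTTCC with 2 free bases between) and C/EBP (TTGCNNAA). The arm is part of the full element, and no other motif contains another. The Serpina3n window held 1 arm of the glucocorticoid element at −183 to −178 and an NF-kB match, GGGCTTTTCC, at −171 to −162, counted from the start. Of all 32851 promoter windows of that length, 16.08% held the arm and 1.41% the NF-kB motif, against 26.67% and 2.67% of the 75 windows of members. The Serpinb11 window held 2 AP-1 matches, TGATTCA at −181 to −175 and TGAATCA at −76 to −70, a motif present in 6.75% of all windows and 16.0% of those of members. The Wfdc18 window held a TATA box at −31 to −26, as 12.37% of all windows and 22.67% of those of members did somewhere. No motif was shared by all 3 windows, and the STAT, C/EBP and full glucocorticoid letters were in none of them. GC content was 46.4%, 42.8% and 38.4% in the order printed, against a median of 52.4% over all windows. A match is a description of letters, not a binding site.

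Some cell type marker lists also differed between the groups, and their part in the rise of the 3 genes was not tested. The sublingual mucous list (6 of 6 genes tested, of which 1, Galnt12, rose with diabetes) had mean log2 levels of 5.94, 6.05, 6.02 and 5.44 in diabetic arrays. Without diabetes the means were 3.99, 5.65 and 4.22 at 21 weeks and 5.06, 5.47 and 5.06 at 6 weeks. Diabetic array 4 was lowest of its group in the mucous list's mean, in Serpinb11 and in Wfdc18. The single arrays named here were picked out after their values were seen. Muc19, a sublingual mucin of that list, measured 11.70, 11.50, 11.66 and 10.62 in the diabetic arrays, 2.03, 10.86 and 4.70 in nondiabetic 21-week arrays and 8.42, 9.95 and 7.55 at 6 weeks. On nondiabetic array 1 it was below the 25th percentile. Nondiabetic 21-week array 1 was the lowest and array 2 the highest of the 6 nondiabetic arrays in the list's mean, Muc19, Serpinb11 and Wfdc18. In these 6 arrays Muc19 ran from 2.03 to 10.86, whereas Muc5b ran from 2.78 to 3.52 and Creb3l1 from 8.59 to 8.82. In nondiabetic 21-week arrays 1, 2 and 3 Galnt12 had 3.94, 4.36 and 2.92. Bpifb2 had 2.77, 3.08 and 2.76, and Agr2 had 3.31, 3.30 and 3.52. Array 1 was not the lowest nondiabetic array for any of these genes, so the order in the list's mean rests largely on Muc19. For Serpina3n nondiabetic 21-week array 2 had 3.85, next to the lowest of all arrays.

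The parotid-type serous list (8 of 8 tested, of which 6 rose with diabetes) lay between 10.79 and 11.10 in diabetic arrays, 6.31 and 8.13 in nondiabetic 21-week arrays and 6.76 and 9.63 at 6 weeks. The 6-week array with 9.63 had Serpinb11 at 4.61, Wfdc18 at 5.89 and Serpina3n at 4.27. In the 6-week group these were the middle, the lowest and the highest value of each gene. Granular convoluted tubule markers (8 of 10 tested) went the other way, and all 8 fell with diabetes. Their means were 4.58 to 6.71 in diabetic, 9.40 to 10.16 in nondiabetic 21-week and 8.10 to 8.61 in 6-week arrays. The macrophage and neutrophil list (8 of 10 tested) was 5.10 to 5.78, 4.53 to 4.74 and 4.56 to 4.999 in the same order of groups, and the adipocyte list (7 of 7 tested) 4.70 to 5.15, 3.62 to 4.11 and 3.99 to 4.13. The duct list (9 of 9 tested, of which 2 fell with diabetes) lay at 5.93 to 6.22, 6.39 to 6.52 and 6.23 to 6.52 in that order. With diabetes 7 of its 9 log2 changes were below 0 and 2 above. The part of these cell types in the rise of the 3 genes was not tested. The list of squamous and basal epithelium (10 of 12 tested) had nearly level means, between 3.21 and 3.45 on all arrays. Its genes went both ways with diabetes, with log2 changes from −0.74 to 0.80. By limma 0 of the 10 passed, and 4 had an unadjusted p under 0.05 (15.8% of all genes), 2 higher and 2 lower. The exocrine pancreas list (6 of 10 tested) lay between 3.29 and 3.71. Hepatocyte genes (5 of 8 tested), a check on liver serpins, lay between 3.51 and 4.03.

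**Figure D2:**
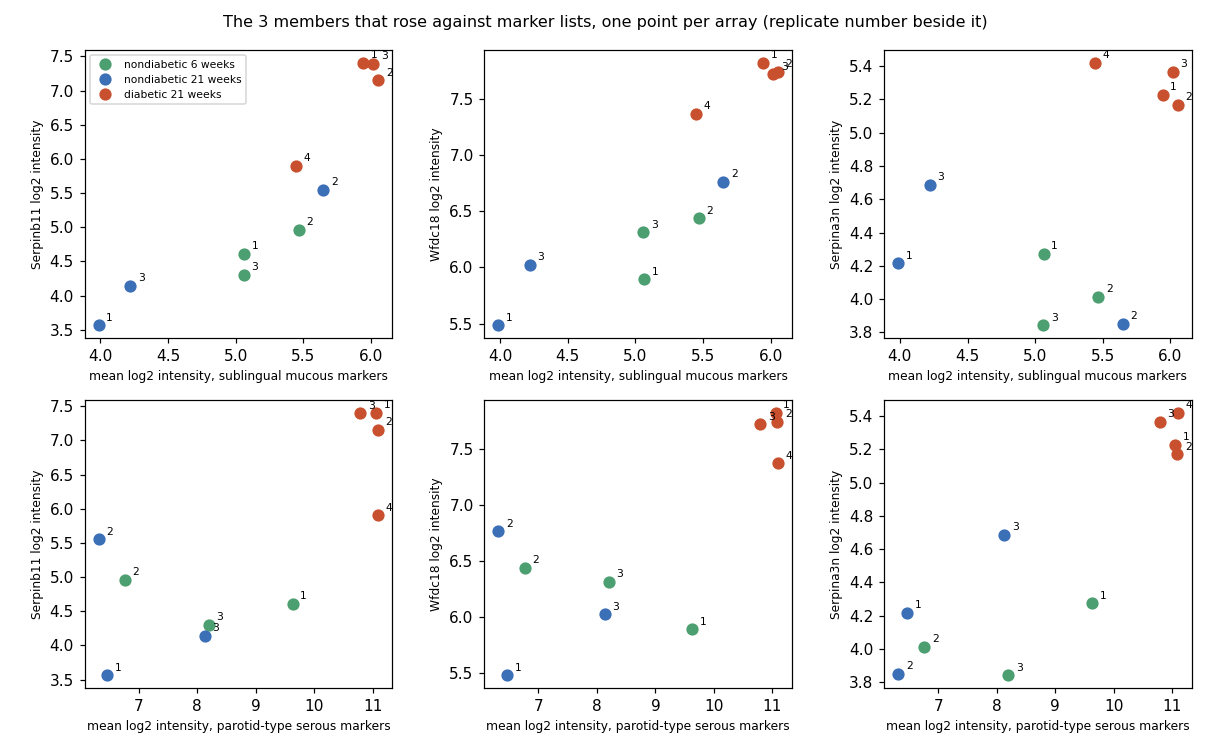
Log2 intensity of the 3 genes that rose (vertical axes) against the mean log2 intensity of the sublingual mucous markers (upper panels) and the parotid-type serous markers (lower panels), with 1 point per array and the replicate number beside it. In the upper left panel Serpinb11 runs from 3.56 on nondiabetic 21-week array 1, where the mucous mean is 3.99, to 5.55 on array 2, where it is 5.65; in the upper right panel Serpina3n is 4.22 on array 1 and 3.85 on array 2.

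Among the remaining serpins, Serpinb1a gave the lowest change, −0.73 ± 0.20 (95% interval −1.17 to −0.29; limma adjusted p = 0.105). This gene encodes an inhibitor of neutrophil serine proteases such as elastase. It measured 3.84, 3.56, 2.96 and 3.27 in diabetic arrays, 4.27, 4.15 and 3.99 in nondiabetic arrays of the same age and 3.54, 4.12 and 4.01 at 6 weeks. The 21-week groups did not overlap, while the 6-week group overlapped both. Its paralog Serpinb1c stood at −0.48 ± 0.17 (adjusted p = 0.190), also without overlap, and near copies like these can share signal.

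Serpinf1 encodes PEDF, a secreted serpin that inhibits no protease and restrains vessel growth. It measured 5.13, 5.37, 5.74 and 5.05 in the diabetic arrays against 4.60, 4.95 and 4.36 in nondiabetic arrays of that age and 5.27, 4.63 and 4.95 at 6 weeks. Its change of 0.69 ± 0.20 did not pass (limma adjusted p = 0.126). Fibroblast markers (7 of 7 tested), from cells known to make PEDF, had means of 6.06 to 6.42 in diabetic, 4.997 to 5.73 in nondiabetic 21-week and 5.39 to 6.89 in 6-week arrays. The part of fibroblasts in its values was not tested.

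Serpina1b, a copy of α1-antitrypsin, measured 3.42, 3.29, 3.25 and 4.06 in diabetic arrays, 3.24, 2.91 and 2.98 in nondiabetic 21-week arrays and 3.32, 3.14 and 3.11 at 6 weeks. Diabetic array 4 was the highest and the other diabetic arrays lay near the 6-week ones. The change was 0.47 ± 0.19 (limma adjusted p = 0.2503). Serpinb9, which protects cells from granzyme B, stood at −0.20 (95% interval −0.51 to 0.11). Serpinb6a and Serpinb6b, intracellular inhibitors, stood at −0.18 (−0.51 to 0.15) and −0.22 (−0.57 to 0.12). Serpinf2, the plasmin inhibitor, stood at −0.02 (−0.28 to 0.24). Serpinh1, the collagen chaperone, stood at 0.02 (−0.34 to 0.38). Each of these 5 intervals lies within 1 on the log2 scale in either direction.

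The pseudogene Serpina4-ps1 measured 2.78, 2.83, 2.83 and 2.86 with diabetes, 2.63, 2.57 and 1.92 without it at 21 weeks and 2.39, 2.94 and 3.18 at 6 weeks. It exceeded the 25th percentile on only 6 arrays, and its change of 0.45 ± 0.20 did not pass (limma adjusted p = 0.293). Serpinb5 ranged from 2.54 to 3.58 over all arrays, with the groups overlapping.

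In the cystatins, Cst3 (cystatin C, the main secreted inhibitor of cathepsins) was higher on every diabetic array without passing the test. Its values were 7.05, 6.98, 7.37 and 7.14 in diabetic arrays, 6.55, 6.75 and 6.71 in nondiabetic 21-week arrays and 6.69, 6.51 and 6.66 at 6 weeks. The log2 change with diabetes was 0.47 ± 0.13 (limma adjusted p = 0.0998). Its second probe set gave 0.27, with overlapping groups: 5.68 to 6.29 in diabetic and 5.59 to 5.90 in nondiabetic 21-week arrays. Cst7 (cystatin F), an inhibitor made by cytotoxic lymphocytes and myeloid cells, measured 3.54, 3.92, 3.57 and 4.56 in diabetic arrays and 3.51, 3.91 and 3.07 in nondiabetic ones of that age, and 3.29, 3.48 and 3.39 at 6 weeks. The 21-week groups overlapped, with a change of 0.40 ± 0.24 (adjusted p = 0.445). The direction turned without both arrays that stand apart (−0.03, limma adjusted p = 0.9475), and the Cst7 change was 0.18 without diabetic array 4. Its highest value was on diabetic array 4, where the list of T and cytotoxic lymphocytes (8 of 9 tested) was also highest, at 5.24 against 3.77 to 4.92 elsewhere. Cst9 lay between 3.01 and 3.45 on all arrays, with a change of −0.09 (adjusted p = 0.763).

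The 6 tested Spink genes had log2 changes below 0, from −0.61 (Spink11) to −0.14 (Spink7), as had 8281 of all 18826 genes. None passed, and 2 had an unadjusted p under 0.05, against 15.8% of all genes. Spink5, the skin protease inhibitor LEKTI, stood at −0.18 ± 0.17 (adjusted p = 0.659). Spink14 measured 2.43, 2.27, 2.32 and 2.53 in diabetic arrays, 2.80, 2.57 and 3.24 in nondiabetic 21-week arrays and 2.18, 2.77 and 2.18 at 6 weeks. The 21-week groups did not overlap, but the gene exceeded the 25th percentile on only 3 of 10 arrays and its change of −0.48 ± 0.18 did not pass (limma adjusted p = 0.235). Spink6 measured 3.72, 3.25, 3.55 and 3.35 with diabetes, 3.68, 3.81 and 3.82 without it at 21 weeks and 3.88, 3.71 and 3.67 at 6 weeks, with overlapping groups (−0.30 ± 0.13, adjusted p = 0.298). No Spink gene was above the array's median on all arrays.

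Besides Wfdc18, none of the 12 tested Wfdc genes passed with diabetes. Wfdc2 (HE4), an antiprotease of airway and salivary epithelium, measured 4.93 to 5.29 in diabetic and 4.66 to 5.33 in nondiabetic 21-week arrays, with a change of 0.03 ± 0.16 (95% interval −0.32 to 0.37; adjusted p = 0.958). Wfdc12 stood at −0.05 ± 0.16 (adjusted p = 0.903) and Wfdc1 at 0.01 ± 0.18 (adjusted p = 0.988). The 12 Wfdc genes other than Wfdc18 had changes of at least −0.29 (Wfdc8) and at most 0.50 (Wfdc17).

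**Figure D3:**
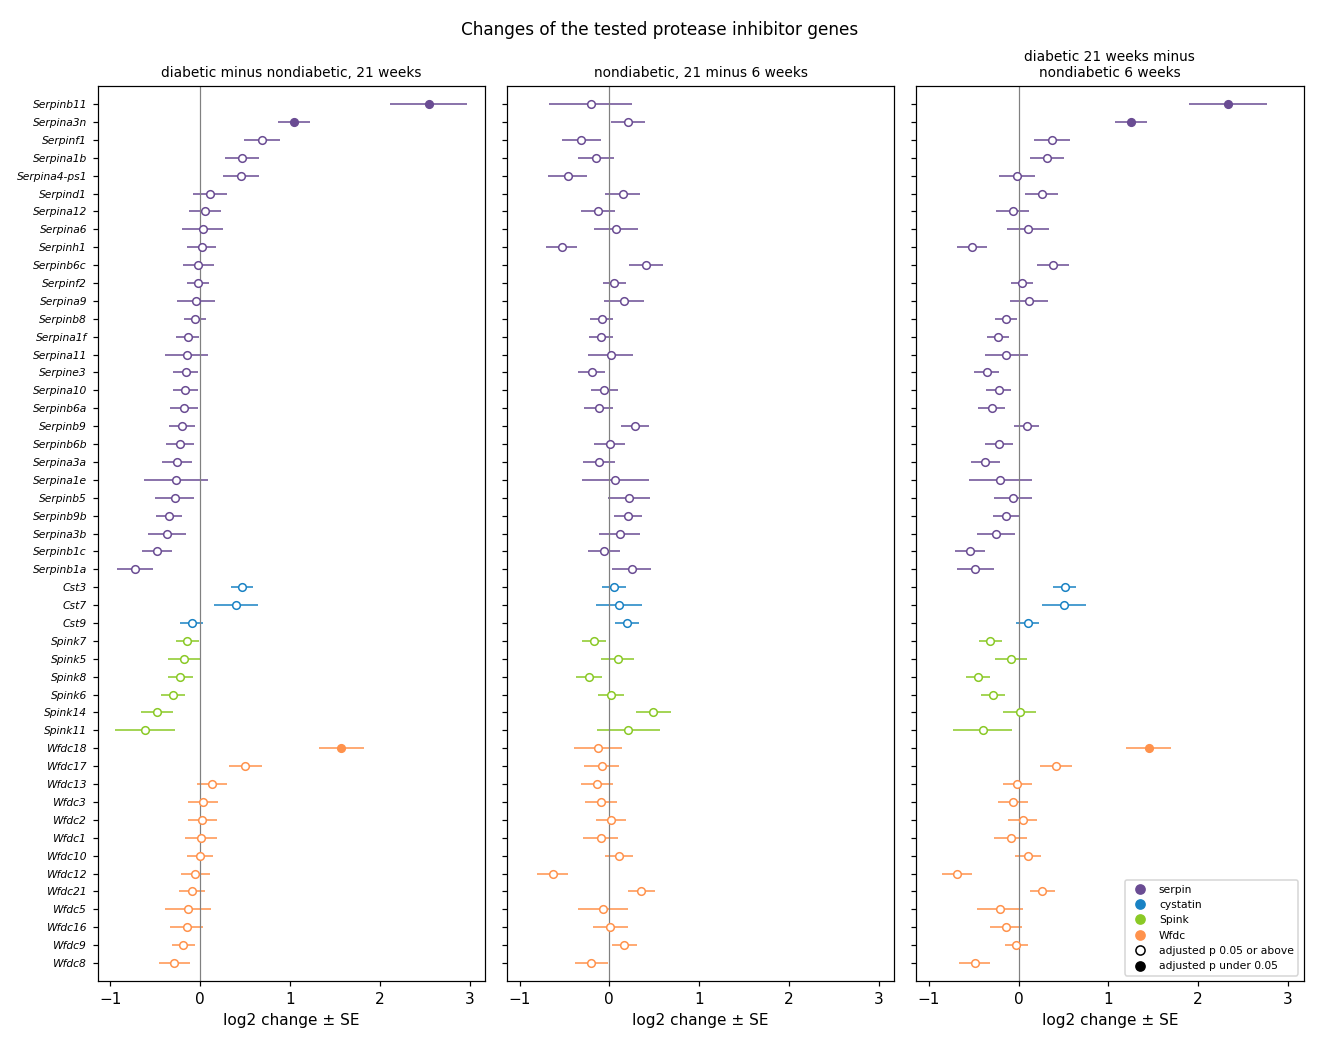
Log2 change with its standard error (limma) for the 49 tested members in each comparison, grouped and coloured by family, with filled points for an adjusted p under 0.05. Filled points are Serpinb11, Serpina3n and Wfdc18 in the left and right panels, and the middle panel has none.

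Nondiabetic glands at 21 weeks (n = 3) against 6 weeks (n = 3) show the age difference without diabetes. By limma 0 of 49 members passed, and 5 had an unadjusted p under 0.05. Of all genes 0.0266% passed (0.00531% rising, 0.0212% falling) and 7.47% were under that unadjusted value. The count of members that passed was 0 under each alternative setting too. With 3 arrays on each side, a missing call does not show that a gene was unchanged. The median log2 change was 0.01 for the members and −0.06 for all genes. The groups did not overlap for 3 members (6.12%; 13.8% of all genes). Wfdc12 was lower at 21 weeks (9.73% of all genes) and Serpinb9 and Wfdc21 were higher (4.11%). The 3 genes that rose with diabetes stood at 0.21 ± 0.19 (Serpina3n, adjusted p = 0.8291), −0.21 ± 0.46 (Serpinb11, adjusted p = 0.9435) and −0.12 ± 0.27 (Wfdc18, adjusted p = 0.939).

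Wfdc12 gave the smallest p of the members with age. This whey acidic protein gene, whose human counterpart is an epithelial antiprotease, measured 10.13, 10.46 and 10.52 at 6 weeks, 9.57, 9.84 and 9.81 at 21 weeks without diabetes and 9.86, 9.57, 9.95 and 9.36 with it. The 6-week arrays were above all 7 older arrays, and the 21-week groups overlapped. The change with age was −0.63 ± 0.17 (95% interval −1.01 to −0.25; limma adjusted p = 0.481). Serpinh1 had −0.53 ± 0.18 (adjusted p = 0.572), with 5.16, 4.66 and 5.09 at 6 weeks, 4.11, 4.52 and 4.68 at 21 weeks and 4.38, 4.60, 4.52 and 4.31 with diabetes. The age groups overlapped slightly. Fibroblast markers were at 5.39 to 6.89 and 4.997 to 5.73 in the same groups, and their part in the Serpinh1 values was not tested. Serpinb9 measured 5.27, 5.33 and 5.38 at 6 weeks and 5.78, 5.66 and 5.41 at 21 weeks, a change of 0.29 ± 0.15 (adjusted p = 0.699). Wfdc21 measured 2.71, 2.73 and 2.68 at 6 weeks and 3.26, 3.14 and 2.80 at 21 weeks, a change of 0.36 ± 0.15 (adjusted p = 0.635). For both genes the arrays of the age groups were apart by a small margin and the test was not passed.

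Diabetic 21-week glands (n = 4) were also set against nondiabetic 6-week glands (n = 3), a comparison in which age and diabetes differ together and which shares the diabetic arrays with the first one. Serpinb11 rose 5.05-fold, Wfdc18 2.73-fold and Serpina3n 2.38-fold, 0 members fell and 46 did not pass (3 of 49 or 6.12%; 1.44% of all genes passed, 0.903% rising and 0.542% falling). At an unadjusted p under 0.05 there were 15 members, against 14.9% of all genes. The log2 changes were 2.34 ± 0.43 (limma adjusted p = 0.0232), 1.45 ± 0.25 (adjusted p = 0.0150) and 1.25 ± 0.18 (adjusted p = 0.00635). Without 6-week array 3 none of them passed: Serpina3n stood at 1.15 (adjusted p = 0.0502), Wfdc18 had an adjusted p of 0.0665 and Serpinb11 stood at 2.18 (adjusted p = 0.118). Wfdc18 was also lost without diabetic array 3 (adjusted p = 0.0520) or 6-week array 1 (0.0764). Serpinb11 was lost without diabetic array 1 (0.0509), 2 (0.0608) or 3 (0.0754) and without 6-week array 1 (0.0837) or 2 (0.0639).

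In the same comparison 17 members (34.7%) had groups that did not overlap, against 16.7% of all genes. In diabetic glands 6 were higher (8.20% of all genes) and 11 lower (8.49%). Those lower included Spink7 and Spink8, Serpinb1c, Serpinb6a, Serpinh1, Wfdc8 and Wfdc12. Wfdc12 stood at −0.69 ± 0.16 (limma adjusted p = 0.0610) and passed under 4 alternatives: limma-trend (adjusted p = 0.0293), array weights (0.0301), quantile normalization (0.0390) and the filter at the median (0.0470). Cst3 stood at 0.52 ± 0.13 (adjusted p = 0.0714) and passed with limma-trend (0.0375) and array weights (0.0342). Serpinh1 had −0.52 ± 0.17 (adjusted p = 0.161). Spink8 measured 2.94, 2.92, 2.74 and 2.83 with diabetes, 3.27, 3.09 and 3.57 at 6 weeks and 3.24, 2.95 and 3.04 at 21 weeks without diabetes, and its change was −0.45 ± 0.14 (adjusted p = 0.139). Spink7 measured 2.65, 2.79, 2.76 and 2.84 with diabetes, 3.25, 3.03 and 2.94 at 6 weeks and 2.88, 3.08 and 2.74 at 21 weeks without it, and its change was −0.31 ± 0.13 (adjusted p = 0.268). Both were dim genes whose diabetic arrays lay below the 6-week ones without passing.

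**Figure D4:**
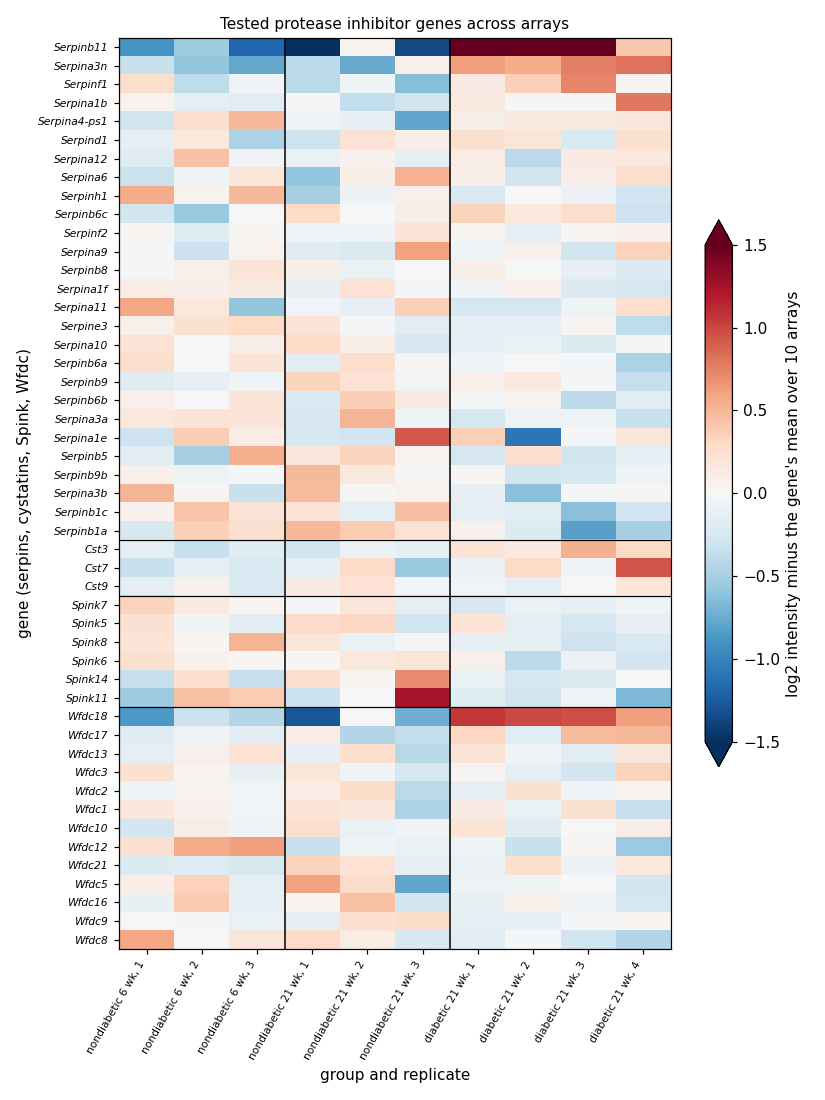
Log2 intensity of the 49 tested members minus each gene's mean over the 10 arrays, with arrays in columns by group and genes in rows by family. Red marks values above and blue values below that mean, and colours saturate at 1.5 in either direction; the rows of Serpinb11, Serpina3n and Wfdc18 are red in the diabetic columns, and that of Wfdc12 is red at 6 weeks.

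Proteases and inhibitors outside the set were counted from 2 lists. Of 60 tested proteases (65 listed), which the inhibitors of these families can bind or which act beside them, 2 rose with diabetes, 0 fell and 58 did not pass (3.33%, against 1.44% of all genes; median log2 change 0.07 against 0.03 over all genes). There were 10 of 60 under 0.05 before adjustment, against 15.8% of all genes. The 2 that rose were the lysosomal proteases Ctsl, cathepsin L, and Lgmn, legumain. Ctsl measured 7.20, 7.29, 7.21 and 7.20 in diabetic arrays against 6.71, 6.57 and 6.76 in nondiabetic arrays of that age and 6.69, 6.43 and 6.81 at 6 weeks. It rose 1.46-fold (0.55 ± 0.12, limma adjusted p = 0.0479). Cathepsin L is a target of cystatin C. The brightest probe set of its gene Cst3 was higher on the same arrays without passing, while the second probe set overlapped between groups. Lgmn, a target of some cystatins, measured 6.29, 6.09, 6.46 and 6.18 with diabetes, 5.68, 5.65 and 5.22 without it and 5.92, 5.36 and 5.59 at 6 weeks. It rose 1.67-fold (0.74 ± 0.17, adjusted p = 0.0476). Both calls lay close to the threshold, and whether they hold with an array left out is not given here. With age 0 of the 60 passed by limma, 6 at an unadjusted p under 0.05 (7.47% of all genes). Against 6-week glands Ctsl alone passed (0.58 ± 0.12, limma adjusted p = 0.0369), 0 fell and 59 did not pass. This was 1.67% of the list, near the 1.44% of all genes that passed there. Lgmn stood at 0.63 in that comparison (limma adjusted p = 0.0845). The tissue kallikreins Klk1b8, Klk1b9, Klk1b16, Klk1b21, Klk1b22 and Klk1b24 are proteases too but were not on this list. They belong to the granular convoluted tubule list above, whose 8 tested genes all fell with diabetes at 21 weeks.

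Of 42 tested other inhibitors (56 listed), 2 rose with diabetes, 0 fell and 40 did not pass (4.76%, against 1.44% of all genes; median log2 change 0.08). At an unadjusted p under 0.05 there were 10 of 42, against 15.8% of all genes. The 2 that rose were the cystatin Cst10 (6.10 ± 0.78, limma adjusted p = 0.00232) and the complement regulator Serping1 (2.11 ± 0.47, adjusted p = 0.0454). Both were left out of the set by its rule, and Cst10 was already counted in the parotid-type serous list above. Serping1 measured 6.82, 7.23, 8.15 and 7.09 in diabetic arrays and 5.71, 5.91 and 4.02 in nondiabetic 21-week arrays. The 4.02 came from nondiabetic array 3, which stood apart. At 6 weeks Serping1 measured 6.61, 5.01 and 6.10, and it did not pass against those glands (1.42 ± 0.47, limma adjusted p = 0.171). Pzp, a broad protease trap, stood at 1.11 ± 0.25 (adjusted p = 0.0502). With age 0 of the 42 passed by limma, 6 at an unadjusted p under 0.05 (7.47% of all genes). Against 6-week glands Cst10 and Cast, the calpain inhibitor calpastatin (1.43-fold, limma adjusted p = 0.0458), rose, 0 fell and 40 did not pass. This was 4.76% of the list, against 1.44% of all genes. The calls of Serping1 and Cast also lay close to the threshold.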

How the data were processed

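Salivary gland tissue was digested with enzymes and filtered, and its total RNA was labelled with biotin as cDNA, per the labels' protocols. The authors deposited 1 log2 value for each probe set and array. The submitters' processing notes name RMA and Affymetrix Power Tools, with no version or setting. Arrays carry no counts, so their number limits the precision.

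Of 41345 probe sets, 23521 had 1 symbol in the platform's gene table, 1814 had several and 16010 were unnamed here. All 86 members matched RefSeq (GRCm38.p6) by gene identifier, with 0 symbols changed. Tested genes exceeded the array's 25th percentile on at least 3 arrays, with the brightest probe set per gene (18826 genes). The group means of the 10 arrays were fitted together in R 4.3.3 by limma 3.58.1 with lmFit and eBayes (7 residual and 5.61 prior degrees of freedom). Tests were two-sided with Benjamini-Hochberg adjustment over all genes and a threshold of 0.05. Intervals are 95%. The 10 arrays included 0 identical pairs, and the fit was tested on simulated data.

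Members, lists and the rule for named genes were chosen with earlier results of these data known. Members past the threshold were named, then the 2 smallest p-values per family and comparison and a set of fixed members. Some of the fixed members were not analysed here. Other members were named for their position or after their values were seen. Marker levels are means of log2 values over the tested genes of a list. Promoters came from RefSeq (63 of the 86 members had one). Alternatives covered the filter, probe set choice, variance model, array weights, scaling, thresholds, a replicate block and each array left out.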

Additional observations from a re-analysis of the deposited data

Results flagged for a closer look

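In the diabetic group, the only one with 4 arrays, the gap between the outermost array and its nearest neighbour was divided by the range of the group for 25 named members and compared with Dixon's 95% limit. Chance passes about 1 in 20 such groups, and 2 of 25 passed. Serpinb11 had a ratio of 0.832 because diabetic array 4 lay at 5.90 and the other 3 at 7.15 to 7.40. Serpinb6a had a ratio of 0.873, with array 4 at 4.24 and the others at 4.65 to 4.70. Diabetic array 4 is also the array with the highest B and plasma cell markers (7.72) and the lowest sublingual mucous markers of its group (5.44). The part of these in either value was not tested. Without that array the Serpinb11 change with diabetes was 2.90 (limma adjusted p = 0.00416).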

How the results depend on the processing

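The count of members that rose with diabetes was 3 and stayed within 2 and 3 under 12 of the 13 alternatives that kept every single array or left out a pair; at an adjusted p under 0.01 it was 1 (Wfdc18). Leaving out each array in turn gave 1 to 3. With age the count was 0 under every alternative run. Against 6-week glands it was 3, with 5 under limma-trend, 5 with array weights and 1 at an adjusted p under 0.01, and leaving out each array gave 0 to 3. Leaving out both arrays that stand apart, chosen after seeing the data, gave 3, 0 and 3. Of the called members' values under alternatives, 57 of 63 kept the call with diabetes and 53 of 63 against 6-week glands, and 0 changed sign. With an array left out fewer arrays carry the test; the cause of the other lost calls was not tested.

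Over all genes, 271 passed with diabetes (207 rose, 64 fell). This was 161 with only the 2 groups compared, 148 at 2-fold or more, 69 at an adjusted p under 0.01, 176 without both arrays that stand apart and 84 to 267 with each array left out. The split was 130 and 100 with quantile normalization. Against 6-week glands 272 passed (170 and 102; 157 and 162 with quantile normalization), 672 with array weights, 508 without both arrays, 128 at 2-fold, 58 at the stricter threshold and 48 to 400 with an array left out. With age 5 passed, with 0 in the 2-group fit, 9 under limma-trend, 18 with array weights, 3 at the stricter threshold, 42 without both arrays and 1 to 10 with an array left out.

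Deviations of same-numbered arrays correlated between −0.12 and 0.07. Arrays of different numbers were not compared, so this does not settle whether the replicate numbers pair the mice. With the replicate number as a block the members called were 3, 0 and 3, and 204 genes passed with diabetes. Counting the 4 Wfdc genes with a letter after the digits made the set 90, with 0 further calls. The Spink genes, and members too dim to test, are limited by signal over background.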

Other observations

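Slpi, the secretory leukocyte protease inhibitor of mucosal fluids with the same whey acidic protein domain, is named here after its values were seen. It measured 7.51 on diabetic array 4 and 3.61 to 4.28 on the other 9 arrays. Its change with diabetes was 0.91 ± 0.65 (limma adjusted p = 0.529), a mean carried by that 1 array.

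Probe sets with several symbols were outside the set. One shared by Serpinb10 and Serpinb2 lay between 2.47 and 3.62, and one shared by Serpinb6a and 1110046J04Rik between 1.75 and 2.53, below the 25th percentile on all arrays. The second probe set of Wfdc12 (1.36 to 1.85) was below that percentile on all arrays too, so the Wfdc12 values rest on 1 probe set.

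Cst10, left out of the set, had a wider difference than any member with diabetes. It measured 9.54 to 9.99 in diabetic arrays and 2.89, 2.44 and 5.76 in nondiabetic arrays of that age, while the widest difference among the members was 2.54 (Serpinb11).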
